A study of Mus musculus with 96 samples.

Results

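RNA from formalin-fixed, paraffin-embedded mouse liver that had been incubated with an organocatalyst and isolated with the Invitrogen PureLink kit was compared with RNA from flash frozen portions of the same livers. The libraries were chosen by their labels alone, 12 of each state, which is 24 of the 96 libraries of the series. All came from 12 male B6C3F1 mice aged 10 to 11 weeks, a hybrid strain used in toxicology. Phenobarbital (PB), a barbiturate drug and an indirect activator of CAR, the nuclear receptor behind induction of hepatic drug metabolism, was given in drinking water at 600 ppm for 7 days to 6 of the mice, and 6 controls received 0 ppm. Each animal gave 1 library to each state, and the 12 pairs are separate animals. All portions, the fixed ones included, were cut from mixed-lobe liver that had first been flash frozen, so no portion was fixed fresh. The frozen portions then stayed frozen. The other portions spent 3 months in buffered formalin before embedding, and their RNA was isolated with an 18 h incubation at 55 °C with the catalyst. Formalin, embedding, incubation, heat and kit therefore changed together between the states, and their parts cannot be told apart.

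Formaldehyde adds hydroxymethyl groups to the bases of RNA and links RNA to protein, and fixed RNA is also fragmented, which hinders priming and reverse transcription. Organocatalysts of the kind used for such RNA speed the removal of these adducts in water at moderate temperature. Libraries were made from total RNA after depletion of ribosomal RNA, so they hold unspliced and nuclear RNA as well as mRNA and do not rely on a poly(A) tail. Hepatocytes make up most of liver mass, and their cytoplasm is rich in mRNA for plasma proteins and metabolic enzymes. Sinusoidal endothelial cells, Kupffer cells and stellate cells make up most of the remainder.

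Measured small RNAs are shown first, because RNAs of one class and like length went opposite ways between the states. Sequences are the GENCODE M21 transcripts on GRCm38, written 5′ to 3′ as DNA. Rny1 (chr6:47788069-47788180, minus strand) and Rny3 (chr6:47781624-47781725, plus strand) are Y RNAs, small cytoplasmic partners of the Ro60 protein, and lie outside same-strand protein-coding genes. Capitals mark the terminal T run where RNA polymerase III stops. Both fell.
Rny1: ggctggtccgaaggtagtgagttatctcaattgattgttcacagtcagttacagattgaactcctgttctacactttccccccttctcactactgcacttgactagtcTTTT
Rny3: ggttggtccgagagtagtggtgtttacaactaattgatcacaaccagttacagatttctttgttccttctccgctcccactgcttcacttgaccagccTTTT
Snord17 (chr2:144265979-144266216, minus strand, in an intron of Snx5) and the small Cajal body RNA Gm25395 (chr1:87776938-87777209, plus strand, in an intron of Atg16l1) both carry the C box TGATGA and the D box CTGA, which are in capitals. Snord17 fell and Gm25395 rose.
Snord17: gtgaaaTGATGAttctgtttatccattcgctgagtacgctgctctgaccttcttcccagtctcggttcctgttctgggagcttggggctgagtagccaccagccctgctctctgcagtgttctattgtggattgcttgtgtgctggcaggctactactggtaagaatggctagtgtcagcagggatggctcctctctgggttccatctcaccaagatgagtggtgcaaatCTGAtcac
Gm25395: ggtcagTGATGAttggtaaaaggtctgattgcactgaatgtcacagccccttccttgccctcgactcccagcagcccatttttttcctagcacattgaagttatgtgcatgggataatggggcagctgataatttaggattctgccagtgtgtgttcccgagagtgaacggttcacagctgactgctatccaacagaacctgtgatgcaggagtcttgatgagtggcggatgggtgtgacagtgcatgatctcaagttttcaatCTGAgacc
Snora23 (chr7:110046364-110046547, plus strand, in an intron of Ipo7), Snora78 (chr17:24719676-24719803, minus strand, outside same-strand protein-coding genes) and Snora21 (chr11:97781639-97781775, minus strand, in an intron of Rpl23) end in the ACA box of pseudouridylation guides, in capitals. Snora23 and Snora78 fell, and Snora21 rose.
Snora23: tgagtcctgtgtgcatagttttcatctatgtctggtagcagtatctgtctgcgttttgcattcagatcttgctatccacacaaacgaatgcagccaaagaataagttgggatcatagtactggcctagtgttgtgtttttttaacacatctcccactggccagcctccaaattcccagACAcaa
Snora78: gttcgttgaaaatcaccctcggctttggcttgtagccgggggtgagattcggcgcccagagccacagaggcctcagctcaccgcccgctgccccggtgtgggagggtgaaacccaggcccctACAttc
Snora21: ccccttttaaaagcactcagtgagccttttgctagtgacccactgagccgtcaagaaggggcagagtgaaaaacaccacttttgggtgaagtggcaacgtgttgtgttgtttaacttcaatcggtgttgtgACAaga
The mitochondrial tRNA genes mt-Tm (chrM:3845-3913, plus strand) and mt-Tp (chrM:15356-15422, minus strand), with their anticodon letters in capitals, both rose.
mt-Tm: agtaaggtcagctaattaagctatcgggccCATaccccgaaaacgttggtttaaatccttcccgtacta
mt-Tp: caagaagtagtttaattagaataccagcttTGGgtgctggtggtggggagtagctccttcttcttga

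Libraries held 15643920 ± 1177567 counts (SD, n = 12) in frozen and 12286160 ± 1147704 in PureLink liver, with ranges of 14527636 to 18442730 and 9746243 to 13911213, and the PureLink library was the smaller in 12 of 12 animals. No libraries held identical counts. Levels are CPM, a gene's counts scaled to a fixed library size, after TMM scaling, and changes are log2 fold changes of PureLink over frozen with the animal as a block, tested with edgeR's quasi-likelihood test and Benjamini-Hochberg adjustment over all genes. The hepatocyte marker Alb stood at 28314 to 68348 CPM in frozen and 16141 to 38572 CPM in fixed libraries, as befits the label liver. Per animal, the correlation of log levels between the states over genes was 0.944 to 0.974, a description, since genes are not independent replicates. The biological coefficient of variation was 0.166 within frozen and 0.181 within PureLink libraries, and 0.0653 around the paired change. The PureLink library of animal 18D was the smallest and the PureLink library of animal 20D had the highest mitochondrial share.

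At equal depth PureLink libraries detected more genes, and their reads were spread away from the abundant liver mRNAs. After thinning all libraries to the lowest total, 20199 genes had at least 1 count in PureLink liver (mean; 19809 to 20622) against 19157 in frozen liver (18882 to 19426). The gain came from several classes. Protein-coding genes detected went from 14316 to 14541, long intergenic RNAs from 566 to 655, antisense genes from 690 to 790, processed pseudogenes from 962 to 1206 and snoRNAs from 180 to 210. Each of these rises was seen in 12 of 12 animals. An exact two-sided permutation test (sign changes per animal) gave a p of 0.000488, the smallest the design can give. Adjusted over the 22 measures it was 0.000537. The 10 most abundant genes took 14.9% of counts against 16.0% (lower in 11 of 12 animals, adjusted p = 0.00205 by the same permutation test).

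Plasma-protein genes took 22.8% ± 2.00 of counts in frozen liver (SD, n = 12, 19.6 to 25.4) and 15.7% ± 2.07 in PureLink liver (11.5 to 17.9). Nuclear-encoded respiratory chain subunits went from 0.814% ± 0.0871 (0.713 to 0.963) to 0.577% ± 0.0390 (0.532 to 0.668), with no overlap between the states. The share of cytosolic ribosomal protein mRNAs went from 0.685% to 0.568%, and that of replication-dependent histone mRNAs from 0.0300% to 0.0189%. Opposite to these, mitochondrially encoded RNAs went from 2.57% ± 0.405 (2.04 to 3.30) to 4.56% ± 0.756 (3.8 to 6.36), again without overlap. Long intergenic, antisense and processed noncoding transcripts went from 2.15% ± 0.252 (1.65 to 2.46) to 4.51% ± 0.827 (3.73 to 6.70), and from 1.22% to 2.64% with Malat1 and Gm42418 left out. TEC genes (transcripts to be experimentally checked) and sense intronic genes together went from 0.232% ± 0.0237 (0.187 to 0.272) to 0.494% ± 0.0564 (0.398 to 0.572). All of these shares moved the same way in 12 of 12 animals (adjusted p = 0.000537, exact permutation test). The share of 7SK, RNase P and RNase MRP RNA did not pass, at 0.915% and 0.947% (higher in 8 of 12 animals, adjusted p = 0.0869, exact permutation test), but the difference passed without animal 20D and with mitochondrial genes left out.

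**Figure D1:**
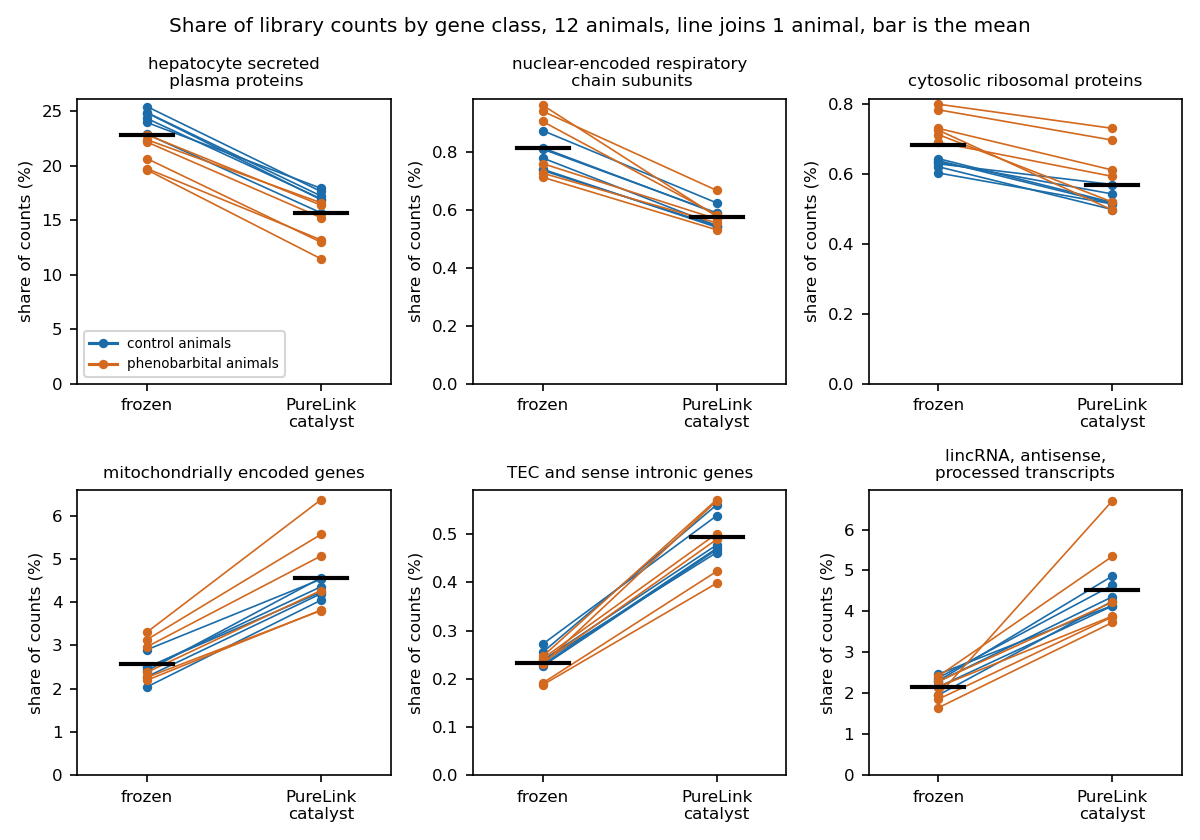
Share of a library's counts (percent) held by 6 gene classes in frozen and PureLink liver. Each line is 1 animal, blue for control and orange for phenobarbital, and black bars are means of 12. Plasma-protein, respiratory chain and ribosomal protein shares go down, and mitochondrial, TEC with sense intronic, and long noncoding shares go up.

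Across all genes, 14132 passed the filter on low counts, 5339 rose (37.8%) and 4729 fell (33.5%), so a called gene is the usual case and a list is to be read against these shares. The changes were mostly small. The median absolute log2 change was 0.27, and 340 genes rose and 112 fell by over 2-fold. In 588 genes (4.16%) all 12 PureLink values lay above all 12 frozen values, and in 1019 genes (7.21%) all lay below. The median over all genes was 0.03 with TMM scaling and 0.29 with library totals alone, on which 9043 genes rose and 2157 fell, so that 80.7% of calls were rises in place of 53.0%. Directions below are therefore relative to the bulk of genes, and lists whose median changes sign on library totals are named as such.

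TEC and sense intronic genes rose almost without exception. Of 640 TEC genes tested 617 rose and 0 fell (median 0.83, against 0.03 for all genes), and of 113 sense intronic genes 112 rose and 0 fell (median 0.85). The TEC rise was not confined to introns. Of 495 TEC genes within introns 486 rose (median 0.85), and of 123 outside same-strand protein-coding genes 110 rose and 0 fell (median 0.74). Per animal, the median TEC change less that of all genes was 0.68 ± 0.079 (SD, n = 12, 0.59 to 0.86). In 115 TEC genes all PureLink values lay above all frozen values. Only 640 of 2412 annotated TEC genes passed the filter on low counts, which a gene can pass through the PureLink libraries alone, and with no filter the TEC median less that of all genes was 0.61. Both classes are mostly single-exon annotations inside introns, and reads on them can come from unspliced RNA of the host gene. Gm38070, in an intron of the interleukin 1 receptor gene Il1r1, had 21.6, 31.8 and 118 CPM (lowest, median, highest) in frozen liver and 37.5, 53.0 and 237 CPM in PureLink liver. The ranges overlapped, and the paired rise was 0.86 ± 0.0419 (log2, SE; adjusted p = 3.13e-16), while the host rose by 0.30.

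Pairs of intronic gene and host were set side by side on the same strand. Over 598 TEC and sense intronic genes in 403 hosts, the intronic median was 0.85 and the host median 0.15, and the intronic change exceeded that of its host in 590 pairs. The intronic genes can pass the filter through the PureLink libraries alone, and hosts were not matched to them in level. In 10 bins of level, nuclear protein-coding genes had a median of 0.08 in the lowest bin and -0.23 in the highest. In 91 pairs the intronic gene rose while its host fell. Among these, chosen after their values were seen, were Gm43314 (1.48) in Cth (-0.57), which makes cysteine from cystathionine, and Gm43609 (0.74) in Abcd3 (-0.29), a peroxisomal transporter. Noncoding genes within introns rose more often than those outside, but the sets are made up of different classes. Of 808 noncoding genes and pseudogenes within an intron of a same-strand protein-coding gene 738 rose and 19 fell (median 0.80). Of 982 outside such genes 643 rose and 103 fell (median 0.48), and of 80 overlapping an exon 71 rose and 3 fell (median 0.70). TEC genes taken alone had medians of 0.85 within introns and 0.74 outside, and snoRNAs within introns stood at 0.23. Processed pseudogenes differed by position too, with 55 rises and 12 falls of 91 within introns (median 0.39) and 25 rises and 57 falls of 130 outside (median -0.22). Their reads may be shared with the parent gene, so their single values are uncertain. Protein-coding genes stood at 3848 rises and 4601 falls of 12213 (median -0.02).

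**Figure D2:**
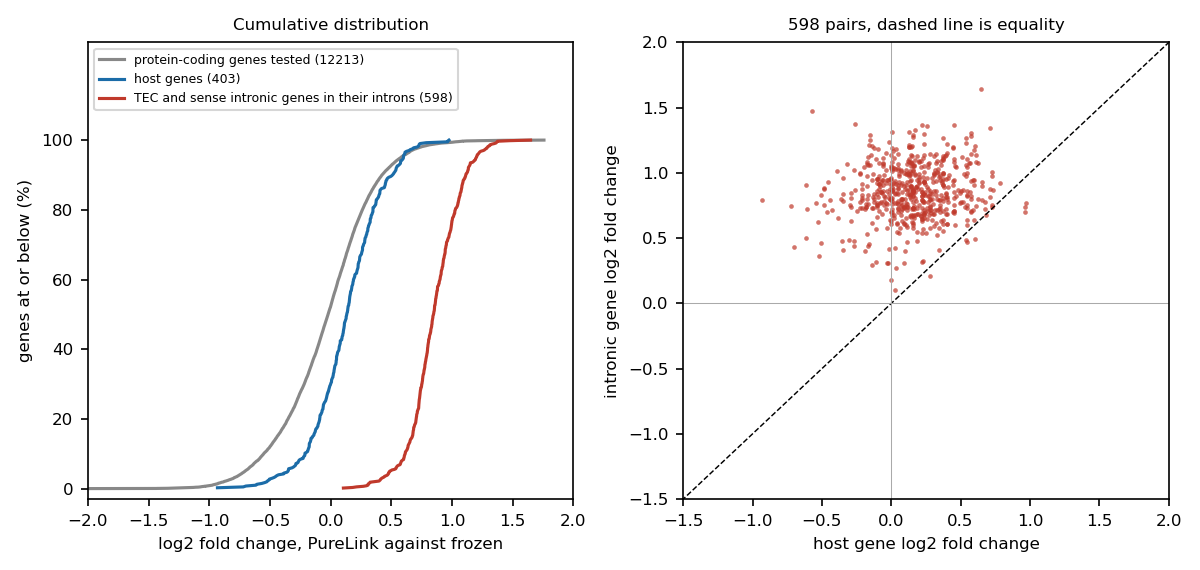
Left, cumulative distribution of the log2 change for 12213 protein-coding genes, 403 host genes and 598 intronic genes. Right, the log2 change of each of 598 intronic genes against that of its host; 590 points lie above the line of equal change.

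Nuclear-retained and long noncoding RNAs rose in 20 of 20 members tested (median 0.67), and in 8 of them the states did not overlap. Malat1, the abundant RNA of nuclear speckles, had 8027, 10081 and 11117 CPM in frozen liver and 11963, 15391 and 19422 CPM in PureLink liver, so all PureLink values lay above the frozen ones (0.63 ± 0.0389 SE, adjusted p = 4.8e-14). Neat1, the scaffold of paraspeckles, went from 833, 1770 and 4086 CPM to 1751, 3328 and 7246 CPM, with overlap and a paired rise of 0.91. Meg3, an imprinted noncoding RNA, rose by 1.5, Firre, an X-linked nuclear RNA, by 1.19, and Kcnq1ot1, the imprinted antisense RNA of Kcnq1, by 0.68. Long intergenic genes gave 163 rises and 5 falls of 215 (median 0.57), antisense genes 147 and 10 of 211 (median 0.50), and processed transcripts 120 and 6 of 155 (median 0.58). These genes too can pass the filter through the PureLink libraries alone, and with no filter their medians less that of all genes were 0.33, 0.25 and 0.37. Whether reads were counted by strand is not stated in the sources used here, and an antisense gene's reads cannot be told apart from its partner's. The few falling long intergenic genes, named after their values were seen, included Gm30097 (-0.69) and AW112010 (-0.56). Gm42418 rose from 243, 386 and 550 CPM to 1119, 1561 and 3509 CPM (2.04), but it overlaps a ribosomal DNA element with Gm26917 (1.00), and both are uncertain, as is Mir6236 (2.53), whose sequence resembles ribosomal RNA.

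Genes of RNA processing mostly rose. SR proteins and hnRNPs, which bind pre-mRNA and set splice-site choice, rose in 28 and fell in 4 of 32 members (median 0.40). The per-animal median less that of all genes was 0.40 ± 0.073 (SD, n = 12), and 18 members were higher in every PureLink library than in any frozen library. Srsf11, an SR protein, had 73.0, 79.0 and 89.4 CPM in frozen and 132, 156 and 192 CPM in PureLink liver, without overlap (0.96, adjusted p = 1.3e-18). The 4 members that fell were all hnRNPs: Hnrnph2 (-0.32), Hnrnpf (-0.31), Hnrnpk (-0.30) and Hnrnpc (-0.17). Host genes of snoRNAs rose in 14 and fell in 4 of 20 (median 0.50). The 4 were Rpl13a, Rps12, Dkc1 and Nop56, which encode 2 ribosomal proteins and 2 snoRNP core proteins. The fit over nuclear coding genes alone leaves noncoding hosts out. The hosts that remain in it had a median of -0.32 less that of all genes. Zinc finger genes with the Zfp name rose in 178 and fell in 12 of 300 (median 0.24, and 0.12 above all genes with no filter).

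Beyond these lists, the largest rises with a gene name and the same direction in every animal included Fam193b, Plppr2 (1.61), Lars2 (1.52), Grik5 (1.51), Adrb3, Snhg11 (1.42) and Chrna4 (1.33). Of these, Grik5 and Chrna4 encode receptors of nerve cells, Grik5 a kainate receptor subunit and Chrna4 a nicotinic receptor subunit. Fam193b had 18.7, 23.2 and 29.9 CPM in frozen and 50.1, 69.5 and 105 CPM in PureLink liver (1.59 ± 0.0759 SE, adjusted p = 2.15e-16), and Adrb3, the beta-3 adrenergic receptor, 9.75, 12.6 and 15.5 CPM and then 23.7, 33.2 and 72.4 CPM (1.49 ± 0.0813 SE, adjusted p = 3.32e-15). Neither gene overlapped between the states. The value for Lars2 is uncertain, since part of its locus resembles ribosomal RNA. Of 5 measured markers of nerve and other tissues 2 rose and 2 fell (median 0.14), among them Mylk of smooth muscle at 0.34 upwards, and Cela1 (-0.45) and Fabp4 (-0.30) downwards. These were named after their values were seen.

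Lists of hepatocyte regulators, clock genes and immediate early genes held more rises than falls among tested members. With no filter on low counts, the median of all genes itself went from 0.03 to 0.10. Less that median, hepatocyte regulators stood at -0.015, immediate early genes at -0.016 and clock genes at 0.12. Hepatocyte regulators and immediate early genes thus changed sign only relative to all genes. All 20 hepatocyte regulators had been tested with the filter too. Of 20 hepatocyte transcription factor genes and other regulators 11 rose and 6 fell (median 0.11), among them Foxa1, a pioneer factor, with 9.19, 19.8 and 30.4 CPM before and 20.8, 32.4 and 56.6 CPM after (0.82, adjusted p = 9.64e-15). Circadian clock genes rose in 12 and fell in 4 of 18 (median 0.24), and the falls included Arntl (-0.23), Cry1 (-0.19) and Nfil3 (-0.18). Immediate early genes rose in 9 and fell in 2 of 20 (median 0.20): Nr4a1 rose by 0.89 and Egr1 by 0.54, while Atf3 (-0.51) and Junb (-0.43) fell.

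Mitochondrially encoded genes rose in all 14 that passed the filter, of 35 annotated (median 0.98), in 7 of them without overlap. The per-animal median less that of all genes was 0.87 ± 0.128 (SD, n = 12, 0.68 to 1.16). The size differed by transcript. The complex I subunit gene mt-Nd6, the protein gene of the light strand, had 40.1, 68.1 and 103 CPM in frozen and 137, 203 and 374 CPM in PureLink liver (1.53 ± 0.0922 SE, adjusted p = 2.66e-14), without overlap. The cytochrome oxidase subunit mt-Co1 rose least among those named, from 11699, 13765 and 19591 CPM to 16235, 17823 and 24884 CPM (0.36 ± 0.0382 SE, adjusted p = 3.1e-09), with overlap but higher in 12 of 12 animals. Between them were mt-Nd1 (0.57), mt-Cytb (0.65), mt-Nd2 (0.95) and mt-Nd5 (1.01), subunits of complexes I and III. The tRNA genes shown above rose as well, mt-Tm by 1.23 and mt-Tp by 1.67.

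Nuclear genes for the same respiratory complexes went the other way. Of 74 nuclear-encoded respiratory chain and ATP synthase subunits 72 fell and 1 rose (median -0.75), and 59 of them were lower in every PureLink library than in any frozen library, against 7.21% of all genes. The member that rose was Ndufb2 (0.21), a complex I subunit. Atp5k, a small subunit of the ATP synthase dimer, had 63.1, 73.7 and 93.9 CPM in frozen and 28.2, 33.1 and 40.1 CPM in PureLink liver (-1.22 ± 0.0352 SE, adjusted p = 4.7e-20), and the values did not overlap. Romo1, a small inner-membrane protein, fell by 1.34 on the log2 scale.

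Of 84 cytosolic ribosomal protein genes 80 passed the filter on low counts, and those 80 fell (median -0.57), 28 of them without overlap. Rpl18 had 69.5, 79.2 and 88.2 CPM in frozen and 34.8, 39.9 and 51.2 CPM in PureLink liver (-0.94 ± 0.0438 SE, adjusted p = 1.22e-16), with all PureLink values below. Ribosomal protein genes have many processed pseudogenes, so some of their reads may be shared with copies. Proteasome subunits fell in 30 of 31 members and rose in 0 (median -0.72, 25 without overlap), with Psmb6, a catalytic subunit, at 92.2, 104 and 116 CPM and then 45.8, 50.5 and 60.2 CPM (-1.03 ± 0.0384 SE, adjusted p = 1.47e-18). Translation factors fell in 22 and rose in 3 of 30 (median -0.30, and -0.04 on library totals), the risers being Pabpc1 (0.36), Eif1 (0.30) and Eif4a2 (0.19). Replication-dependent histone genes, whose mRNAs end in a stem-loop and carry no poly(A) tail, fell in 23 and rose in 2 of the 27 tested, of 65 annotated (median -1.21). Hist1h1e, a linker histone, had 43.9, 50.4 and 72.7 CPM and then 14.4, 20.4 and 24.5 CPM (-1.33 ± 0.0546 SE, adjusted p = 9.22e-18), without overlap. The 2 histone genes that rose were Hist3h2a (0.61) and Hist2h2be (0.43).

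Hepatocyte secreted proteins fell as a group: 46 of 48 fell and 1 rose (median -0.79), 25 of them without overlap. The per-animal median less that of all genes was -0.81 ± 0.115 (SD, n = 12, -1.03 to -0.59). Apoe, the lipoprotein ligand of the LDL receptor, had 7175, 10068 and 13130 CPM in frozen and 2885, 4347 and 5062 CPM in PureLink liver (-1.27 ± 0.037 SE, adjusted p = 4.7e-20), all below. Albumin mRNA (Alb) had 28314, 47900 and 68348 CPM and then 16141, 25550 and 38572 CPM, overlapping between animals but lower in 12 of 12 pairs (-0.85 ± 0.0508 SE, adjusted p = 2.34e-14). Hpx, the heme scavenger hemopexin, fell by 1.23 on the log2 scale (adjusted p = 1.65e-18), with values of 3588 to 20787 CPM before and 1437 to 9256 CPM after. The single rise was Apoc2 (1.06, adjusted p = 8.03e-09), an activator of lipoprotein lipase, named after its values were seen. Acute phase and interleukin 6 genes fell in 17 and rose in 3 of 22 (median -0.57), the 3 being the receptors Il6ra (0.34) and Il1r1 (0.30) and the feedback inhibitor Socs3 (0.22).

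Metabolic enzymes of the hepatocyte fell broadly. Conjugation enzymes, which attach glucuronate, sulfate or glutathione, fell in 44 and rose in 1 of 46 (median -0.67), the riser being Ugt1a6a (0.88). Gstp1, a glutathione transferase, had 656, 730 and 937 CPM in frozen and 271, 322 and 388 CPM in PureLink liver (-1.19 ± 0.0378 SE, adjusted p = 1.42e-19), without overlap. The CYP2B, CYP2C and CYP3A genes fell in 14 and rose in 2 of 19 (median -0.51), and the other cytochrome P450 genes and their redox partners fell in 25 and rose in 1 of 28 (median -0.54). Urea cycle and other periportal genes fell in 20 and rose in 0 of 21 (median -0.51). Mitochondrial fatty acid oxidation and PPARA target genes fell in 18 and rose in 1 of 21 (median -0.48). Cholesterol and fatty acid synthesis genes fell in 21 and rose in 2 of 30 (median -0.22, but 0.05 on library totals), the 2 being Pnpla3 (0.93), a lipid droplet lipase, and Srebf2 (0.11), the sterol-sensing transcription factor. Bile acid and other hepatic transporters fell in 16 and rose in 3 of 20 (median -0.28, and -0.01 on library totals), with Abcc6 at 0.38, Abcg5 at 0.17 and Abcc2 at 0.16 the exceptions.

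Of 20 pericentral Wnt-dependent genes tested 12 fell and 5 rose (median -0.23, but 0.03 on library totals). The 5 that rose, named after their values were seen, were Tbx3 (0.58), Axin2 (0.41), Znrf3 (0.40), Lgr5 (0.37) and Rnf43 (0.34). Axin2, Znrf3 and Rnf43 encode feedback inhibitors of Wnt signalling and Lgr5 a receptor that enhances it. Among the falling members was the ethanol-metabolising enzyme gene Cyp2e1 (-0.65).

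Chaperone, antioxidant and cell cycle lists held more falls than rises. Heat shock and cytosolic chaperone genes fell in 17 and rose in 1 of 21 (median -0.61), the riser being Hsf1 (0.30), the transcription factor of the heat shock response. Endoplasmic reticulum chaperone and stress genes fell in 19 and rose in 2 of 26 (median -0.52), namely Ddit3 (0.46), a stress-induced transcription factor, and Ern1 (0.25), the sensor IRE1. Calr, the lumenal chaperone calreticulin, had 1058, 1306 and 1484 CPM in frozen and 527, 644 and 759 CPM in PureLink liver (-0.99 ± 0.0363 SE, adjusted p = 1.15e-18), without overlap. NRF2 targets and antioxidant genes fell in 18 and rose in 1 of 21 (median -0.44), and cell cycle genes fell in 19 and rose in 0 of 29 (median -0.41). Interferon response genes fell in 20 and rose in 6 of 31 (median -0.21, but 0.06 on library totals). Oas2 (0.95) and Mx1 (0.62), antiviral effectors, rose, while the immunoproteasome subunit Psmb8 (-0.79) and the class I light chain B2m (-0.64) fell. The common reference genes Gapdh (-0.99) and Actb (-0.71) both fell.

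**Figure D3:**
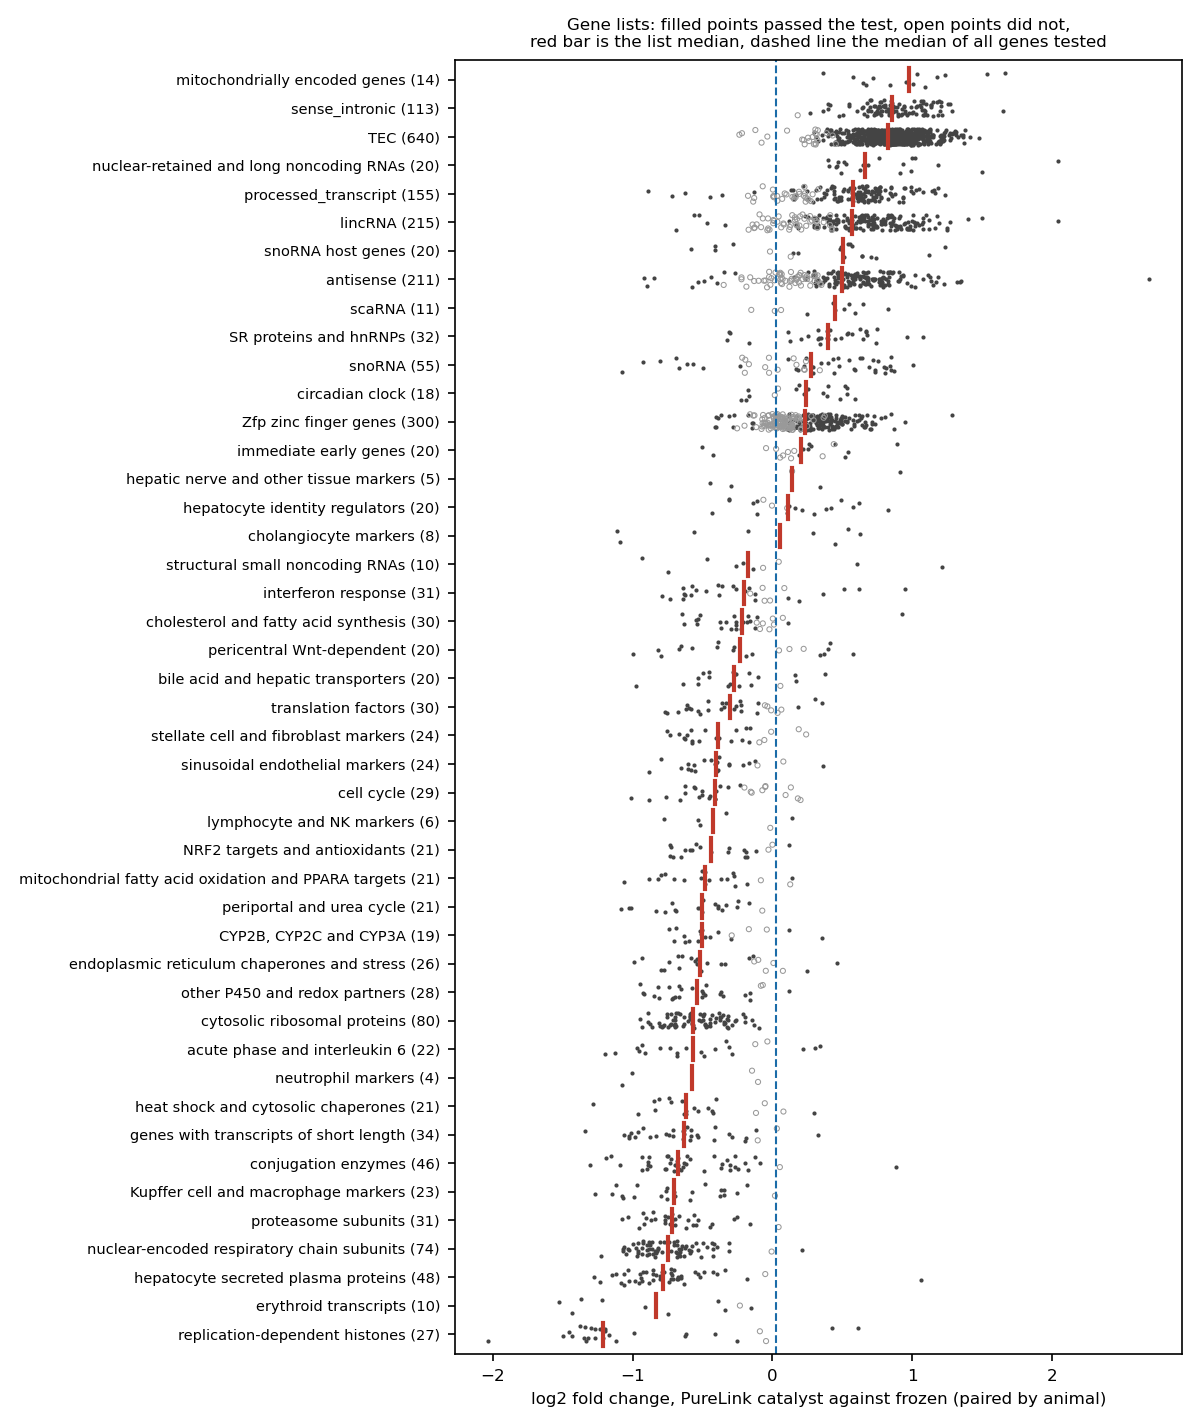
Log2 change of PureLink over frozen for every tested member of 45 lists and gene classes, 1 row each. Filled points passed the test, open points did not, red bars are medians and the dashed line is the median of all genes. TEC, sense intronic, nuclear noncoding and mitochondrially encoded rows lie to the right, and plasma-protein, respiratory chain, proteasome and histone rows to the left.

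Markers of Kupffer, endothelial and stellate cells mostly fell, by different amounts, and cholangiocyte markers went both ways. In bulk liver portions of the same animals, fewer cells of a type, less of its RNA per cell and the handling of the fixed portions cannot be told apart. Kupffer cell and macrophage markers fell in 22 and rose in 0 of 23 (median -0.70), and their summed level was 667, 920 and 1446 as CPM by library totals (lowest, median, highest) in frozen and 408, 741 and 1123 in PureLink liver. C1qa, a complement subunit made by Kupffer cells, had 34.7, 48.4 and 87.3 CPM and then 10.1, 21.4 and 36.3 CPM (-1.27 ± 0.0542 SE, adjusted p = 2.26e-17), with a slight overlap. Clec4f, a Kupffer cell lectin, had 92.5, 124 and 196 CPM and then 35.2, 73.0 and 113 CPM (-0.76 ± 0.0557 SE, adjusted p = 1.44e-12), with overlap. Sinusoidal endothelial markers fell in 21 and rose in 1 of 24 (median -0.40), and their sums overlapped, at 1288, 1421 and 1697 against 936, 1314 and 1780 CPM. The scavenger receptor Stab2 had a small fall (-0.13, adjusted p = 0.0132) that turned to 0.14 on library totals, and Egfl7 (0.36) rose. Stab2 did not pass without the block (adjusted p = 0.117), over nuclear coding genes alone (adjusted p = 0.154) or with the GC offset (adjusted p = 0.281).

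Stellate cell and fibroblast markers fell in 19 and rose in 0 of 24 (median -0.39), with sums of 872, 1060 and 1270 and then 686, 972 and 1200 CPM, and the retinol-storing enzyme gene Lrat did not pass (-0.09, adjusted p = 0.156). Lrat passed as a fall without animal 8D (-0.14, adjusted p = 0.0202), without animal 80B (-0.13, adjusted p = 0.0417), with no filter (adjusted p = 0.0415) and with the length (-0.21) or GC offset (-0.20), but as a rise on library totals (0.17), so its direction is not settled. Cholangiocyte markers gave 4 rises and 4 falls of 8 (median 0.06, and -0.52 less that of all genes with no filter). Those that rose included the transcription factor genes Sox9 (0.63) and Ehf (0.54) and the cilium gene Pkhd1 (0.29), and the 4 that fell were Krt18, Krt8, Spp1 (-0.56) and Cdh1 (-0.18). Krt18, a keratin also made by hepatocytes, had 139, 189 and 277 CPM and then 65.7, 94.4 and 140 CPM (-1.11, adjusted p = 1.21e-18). The duct keratin Krt19 and 7 other markers of the list did not pass the filter on low counts. Erythroid transcripts, which come from blood left in the tissue, fell in 9 and rose in 0 of 10 (median -0.83), with sums of 370, 476 and 660 before and 310, 360 and 429 after. Hbb-bs, adult beta globin, had 81.4, 142 and 224 CPM and then 31.5, 46.1 and 93.4 CPM (-1.43 ± 0.078 SE, adjusted p = 3.19e-15), with a small overlap. It has a near-identical neighbour, Hbb-bt (-1.53), so the division of reads between them is uncertain. Of 24 lymphocyte markers 6 were tested, 4 fell and 1 rose, and of 14 neutrophil markers 4 were tested, of which S100a9 (-1.08) and S100a8 (-1.0) fell. The part of blood and of other cells in the hepatocyte results was not tested.

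Small noncoding RNAs did not move as a block. Of 55 snoRNA genes tested, from 1507 annotated, 32 rose and 9 fell (median 0.28). But the per-animal median less that of all genes ranged from -0.15 to 0.35 (mean 0.17 ± 0.151 SD, n = 12). The direction turned with a length offset, under which 12 rose and 18 fell (median -0.11). Small Cajal body RNAs rose in 8 and fell in 0 of 11 (median 0.44, and 0.23 above all genes with a length offset). Of the RNAs whose sequences are given above, Snord17 had 170, 205 and 258 CPM in frozen and 95.4, 132 and 175 CPM in PureLink liver (-0.69 ± 0.036 SE, adjusted p = 1.46e-15), with a slight overlap. Snora23 had 60.2, 93.2 and 129 CPM and then 35.3, 58.3 and 67.7 CPM (-0.67 ± 0.0471 SE, adjusted p = 6.85e-13), also with a slight overlap. Gm25395 went the other way, from 117, 152 and 172 CPM to 155, 199 and 246 CPM, higher in 12 of 12 animals (0.43 ± 0.0335 SE, adjusted p = 5.37e-12). Snora78 fell by 0.92 and Snora57 by 0.81 on the log2 scale, while Snora21 rose by 0.84, and Snora73b, among the most abundant, did not pass (0.04, adjusted p = 0.36).

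Both directions occurred within box types and within hosts. With ACA near the 3′ end (within the last 9 bases) 23 rose and 7 fell of 43, and with both a C box TGATGA in the first 25 bases and a D box CTGA in the last 20 bases but no ACA, 3 rose and 1 fell of 5. These are letters found on the transcript strand, not classified guides. The 7 snoRNAs under 120 nt all rose (median 0.58), and of 48 longer ones 25 rose and 9 fell (median 0.23). Over 44 snoRNA and scaRNA genes in 39 hosts, the small RNA's median was 0.23 and the host's -0.15, and the small RNA stood above its host in 29 pairs. Snora23 fell more than Ipo7 (-0.26) and Snord17 more than Snx5 (-0.28), whereas Snora21 rose in a falling host, Rpl23 (-0.20). Reads on these genes can also come from the unspliced host intron.

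The Y RNAs fell. Rny1 had 4.30, 8.73 and 13.8 CPM in frozen and 3.47, 4.33 and 6.90 CPM in PureLink liver, lower in 12 of 12 animals with overlap (-0.93 ± 0.0919 SE, adjusted p = 7.06e-10). Rny3 had 8.67, 18.7 and 32.4 CPM and then 6.64, 10.1 and 17.5 CPM (-0.75 ± 0.078 SE, adjusted p = 2.11e-09), with overlap. Of 10 structural small RNAs 6 fell and 2 rose (median -0.18, but 0.09 on library totals). The transcription elongation regulator 7SK (Rn7sk) stood at -0.26, RNase MRP RNA (Rmrp) at -0.21 and RNase P RNA (Rpph1) at -0.14, and all 3 turned positive on library totals, at 0.0028, 0.054 and 0.12. Rnu11 of the minor spliceosome rose by 0.61 on the log2 scale and Rn7s6, a 7S RNA gene, by 1.21. 7S RNA has many genomic copies, so the value for Rn7s6 is uncertain.

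**Figure D4:**
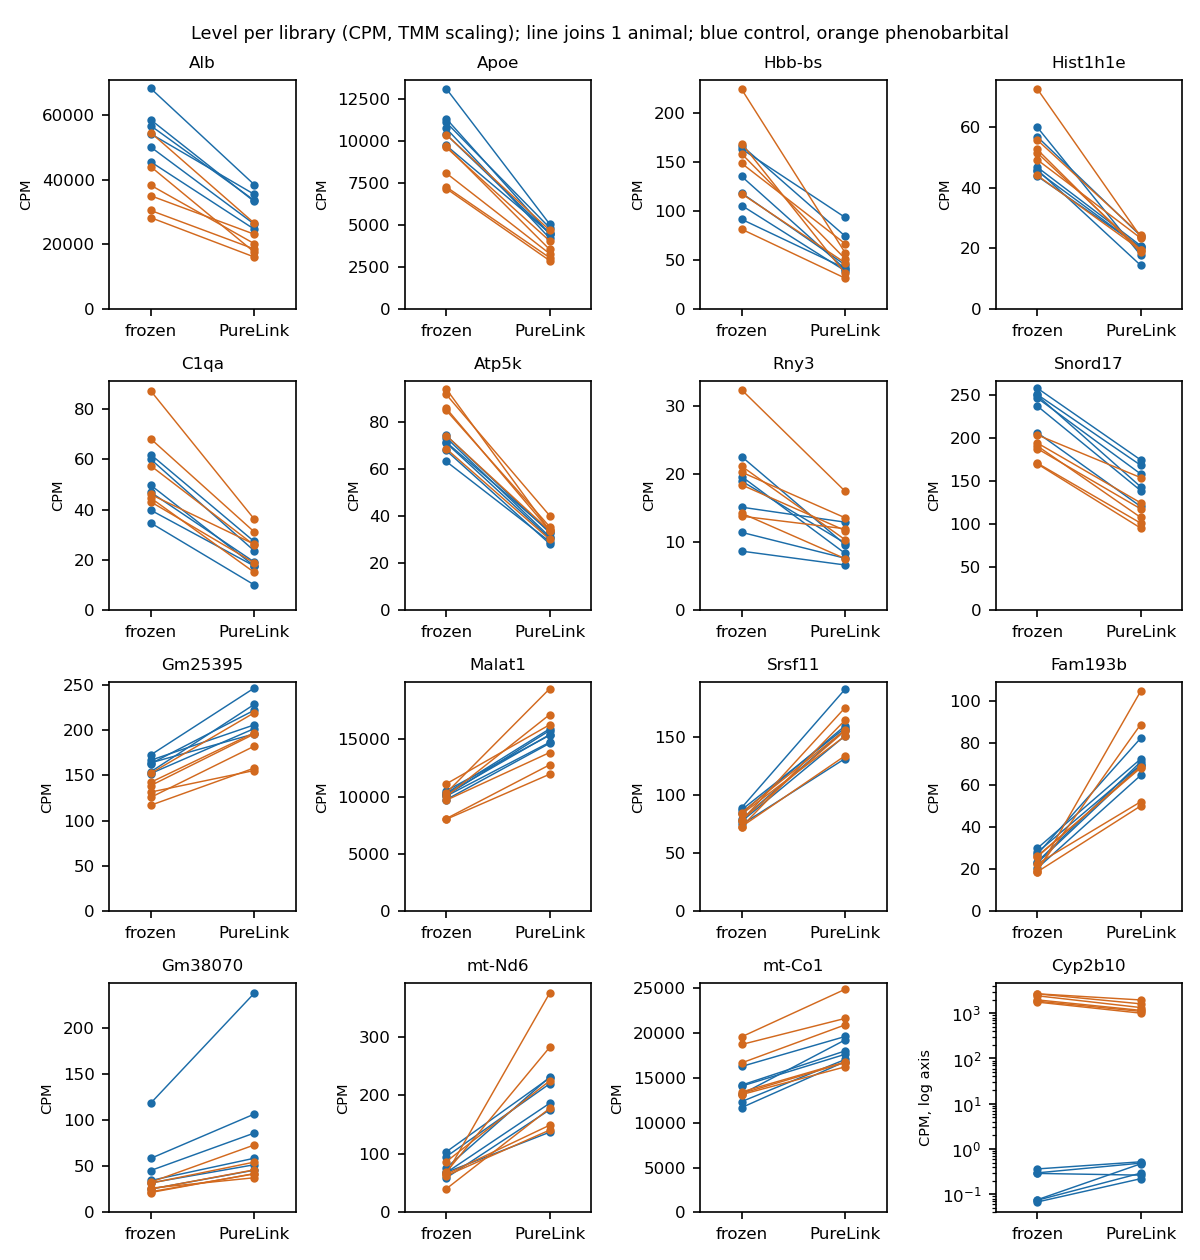
Level (CPM) of 16 named genes in every frozen and PureLink library, joined by animal, with control in blue and phenobarbital in orange. Apoe, Hist1h1e and Atp5k lie lower in all PureLink libraries, and Srsf11, Fam193b, Malat1 and mt-Nd6 higher, while Alb, Rny3 and Snord17 overlap; Cyp2b10 has a log axis.

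Transcript length ordered the protein-coding genes. Over 12201 nuclear protein-coding genes, Spearman's rank correlation between the log2 change and the length of the annotated transcript was 0.44, and per animal it was 0.383 ± 0.042 (SD, n = 12, 0.306 to 0.443). The genes share libraries and are not replicates, so no p is given. In 10 bins of length, the shortest bin (median 1135 bases) had 928 falls and 89 rises of 1221 genes (median -0.46), and the longest (median 8406 bases) had 699 rises and 174 falls of 1220 (median 0.16). The order held within each of 3 classes of level: from the shortest to the longest of 5 bins the median went from -0.26 to 0.17 in the lowest class, from -0.37 to 0.16 in the middle class and from -0.54 to 0.13 in the highest class. The rank correlation was 0.23 with summed intron length, -0.17 with level and -0.07 with GC content of the transcript. Genes with no annotated retained-intron transcript had a median of -0.05 (4948 genes), and those with 9 or more had 0.16 (84 genes). A list of 34 genes with short transcripts had 31 falls and 1 rise (median -0.63). A smooth trend on length, fitted over all genes within each library, was also used as an offset. It did not remove the order by length, since the rank correlation over nuclear protein-coding genes was still 0.16. Under it, the median less that of all genes was -0.70 for plasma proteins, -0.57 for respiratory chain subunits, -0.36 for ribosomal proteins and 0.89 for TEC genes. The part of length in these values was not tested.

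**Figure D5:**
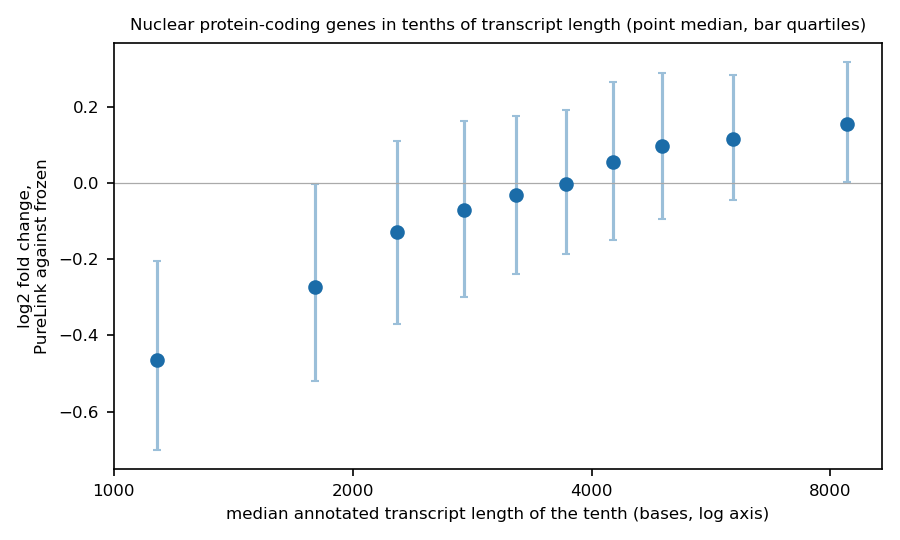
Median log2 change of PureLink over frozen for nuclear protein-coding genes in 10 bins of annotated transcript length (log axis, bases), with bars from the first to the last quartile. The medians go from -0.46 in the shortest bin to 0.16 in the longest.

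The comparison was repeated within each treatment. In control animals 4539 of 14138 genes rose (32.1%) and 4122 fell (29.2%), and in phenobarbital animals 4105 of 14202 rose (28.9%) and 4238 fell (29.8%), with 6 pairs each. The 2 sets of animals share no library. Of 13871 genes tested in both, 3524 rose in both and 3637 fell in both, and 3 passed in opposite directions: Hectd2os (0.13 in control, -0.32 in phenobarbital animals), Zfp758 (0.24 and -0.24) and Fam167a (-0.39 and 0.41). Plasma-protein genes fell in 46 of 48 in each treatment, with medians of -0.73 and -0.85, ribosomal proteins in 78 of 80 in each (-0.49 and -0.62), and mitochondrially encoded genes rose in 14 (0.95 in each). Endothelial markers had a median of -0.51 in control and -0.32 in phenobarbital animals.

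The test of the difference itself, an interaction of state and treatment in edgeR, called 0 of 14932 genes (0%), with a lowest adjusted p of 0.622. With no filter on low counts it called 16 of 28918 genes. Among these, named after their values were seen, were mt-Nd6, Hbb-bs and Tfrc, which also pass the filter. At an unadjusted p under 0.05 the edgeR test with the filter listed 890 of the 14932 genes, and DESeq2 called 0 and listed 535. A share of about 0.05 passes that threshold with no interaction at all, so these counts are not findings. On simulated counts the test found 34% of the smallest interactions simulated (under 1.5-fold), 66% of those of 1.5-fold, 86% at 2-fold and 96% at 4-fold. It also called 11 genes simulated without an interaction. The genes of lowest p had an adjusted p of 0.622 and included Chst2 (0.82), Dkk3 (1.04), Cyp2j9 (0.40), Slc4a1 (-1.21) and Tfrc (-0.37), chosen after their values were seen.

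The genes that phenobarbital induces show the same scale of change within the treated animals. Cyp2b10, the classical CAR target, had 0.0672, 0.182 and 0.362 CPM in frozen and 0.220, 0.380 and 0.520 CPM in PureLink control livers, which is a handful of reads. In phenobarbital livers it had 1762, 2202 and 2690 CPM and then 1005, 1247 and 1966 CPM (-0.75 ± 0.0537 SE, adjusted p = 7.82e-09 over 6 pairs, edgeR). Over all 12 animals its change was -0.70 (adjusted p = 1.58e-10), with 7 animals lower and 5 higher, and with DESeq2 it was -0.29 (adjusted p = 0.373). Cyp2c29 fell in both treatments, from 105, 340 and 510 CPM to 75.9, 189 and 346 CPM in control livers and from 5466, 6741 and 7728 CPM to 3209, 3603 and 4902 CPM in phenobarbital livers. Cyp3a11 had 31.7, 149 and 274 CPM and then 22.5, 82.9 and 214 CPM in control livers, and 5804, 7502 and 12425 CPM and then 3502, 4395 and 7609 CPM in phenobarbital livers (-0.69 over all animals, adjusted p = 8.61e-14). In every one of these genes the phenobarbital libraries of either state lay above all control libraries.

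The same PureLink libraries were set against the other catalyst preparation, in which the equally incubated fixed liver was isolated with the Qiagen AllPrep kit. These and the following comparison share the PureLink libraries with the one above, so their values are given side by side and not as separate evidence. Against AllPrep 2509 of 14124 genes rose (17.8%) and 2698 fell (19.1%), and 5 genes rose and 0 fell by over 2-fold. Those 5 were Gm26917 (1.10, adjusted p = 4.27e-05), Gm37954, Pcdhgb7, A530083M17Rik and Gm16200. TEC genes rose in 323 and fell in 2 of 664 (median 0.27) and nuclear noncoding RNAs in 16 and 1 of 20 (0.35). Ribosomal proteins fell in 79 of 80 (-0.31), respiratory chain subunits in 67 of 74 (-0.21), and plasma proteins in 23 while rising in 3 of 48 (-0.07). Mitochondrially encoded genes gave 4 rises and 3 falls of 14, with mt-Nd6 at 0.79 and mt-Co1 at -0.21. Snord17 had 36.3, 85.7 and 153 CPM in AllPrep and 104, 143 and 188 CPM in PureLink libraries, higher in 12 of 12 animals with overlap (0.81, adjusted p = 1.36e-05). Without the animal as a block only 163 rises and 165 falls passed.

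Against the 3-month formalin liver without catalyst 4737 of 13556 genes rose (34.9%) and 4310 fell (31.8%), 663 and 261 of them by over 2-fold. The untreated libraries were smaller, with a mean of 8112837 counts against 12286160 in PureLink libraries. That of animal 8A held only 1264563 counts, against 6257294 to 10217453 in the other untreated libraries. That state's kit is not named in the sources used here, and kit and incubation cannot be told apart. Of 62 snoRNA genes 53 fell and 2 rose (median -2.40), and 10 of 10 structural small RNAs fell (median -2.07). Rny1 had 34.0, 122 and 431 CPM without catalyst and 3.58, 4.44 and 6.97 CPM in PureLink libraries (-4.93, adjusted p = 7.01e-19), and Rny3 had 86.1, 235 and 931 CPM and then 6.79, 10.3 and 17.6 CPM (-4.67, adjusted p = 5.42e-18), both without overlap. Mitochondrially encoded genes fell in 14 of 15 (median -1.43), where they had risen against frozen liver. Plasma proteins rose in 20 and fell in 19 of 48 (median -0.01), and Alb did not pass (-0.15, adjusted p = 0.0717). TEC genes rose in 383 and fell in 14 of 589 (0.59), nuclear noncoding RNAs in 14 and 2 of 18 (1.22), and SR proteins and hnRNPs in 22 and 5 of 32 (0.48). Srsf5, an SR protein, had 43.2, 55.2 and 89.5 CPM and then 184, 217 and 333 CPM (1.97, adjusted p = 4.15e-19), without overlap. Ribosomal proteins fell in 76 and rose in 1 of 80 (-0.67).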

How the data were processed

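Per the labels, libraries were stranded and made from total liver RNA after ribosomal RNA depletion. The authors deposited whole-number counts per Ensembl gene, which were used here without change. CASAVA, STAR 2.5, edgeR and the builds GRCm38 and mm10 are listed in the submitters' processing notes, without roles. No source used here names the counting tool, its annotation or its use of strand. The deposited table had 47465 lines, of which 92 spike-in rows with 110 counts in all libraries were left out. A second deposited table of log2 values by the authors was not used. The 47373 genes matched GENCODE M21, which gave symbols, classes, positions and sequences on GRCm38. Genome coordinates are 1-based.

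Groups came from the titles and preservation labels. Fold changes came from edgeR 4.0.16 in R 4.3.3: TMM scaling, the filter on low counts (minimum 10, by state), the quasi-likelihood F test with the animal as a block, and Benjamini-Hochberg adjustment over all genes tested at 0.05. Standard errors were derived from the fold change and F. The titles carry the animal, which pairs the libraries. Over 10162 genes, deviations from the group means correlated by more than 0.1 in 12 of 12 same-animal pairs (median 0.720, range 0.507 to 0.877), against a median of -0.122 between animals. Shares of counts and genes detected were tested by exact two-sided permutation over all 4096 sign changes, adjusted over 22 measures. Reads carry no molecular identifiers.

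Genes were named by a rule: the 12 called genes with the largest log2 changes each way, a mean of 5 CPM or more and 1 direction in every animal, up to 4 called and 2 uncalled members of each list described, fixed genes, the largest members of noncoding and histone classes, and the 4 largest rises and falls in the other 2 state comparisons. Genes outside it are named as chosen after their values were seen, as are all single members that went against their list. A few genes are not reported here. The members and the 34 gene lists (921 of 932 symbols found) were chosen with earlier results of these data known. Alternatives were DESeq2 1.42.0, limma voom (limma 3.58.1), RLE scaling, library totals, no filter, thinning, no block, offsets on length or GC content, nuclear protein-coding genes alone, and each animal left out. Tested on simulated counts with 50 changed genes per fold size among 13984 genes, the comparison called 78% of genes changed 1.25-fold, 90% at 1.5-fold, 94% at 2-fold and 98% at 4-fold. For the interaction 14131 genes were simulated. Each of these simulations also gave 11 calls among unchanged genes. Only the chosen genes changed in them, in random directions, whereas 71.2% of genes were called between the states. The simulations therefore do not show how the state comparison performs under so broad a change.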

Additional observations from a re-analysis of the deposited data

Results flagged for a closer look

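Of 216 groups of 6 libraries checked for a highest or lowest value far from the others, 10 had one by Dixon's test, and chance gives about 1 in 20. Library totals stood apart for animal 8C among frozen controls, with 16456535 counts against 14527636 to 15214338, and for animal 21C among PureLink controls, with 13911213 against 11951849 to 12541552. Animal 80B had the fewest TEC genes at equal depth among the phenobarbital animals in both states, 990 against 1027 to 1044 in frozen and 1078 against 1153 to 1180 in PureLink liver, and in frozen liver the fewest long intergenic genes, 525 against 561 to 582. Animal 8D stood apart among PureLink controls with 183 sense intronic genes (others 187 to 189) and 1267 processed pseudogenes (others 1166 to 1187). The intronic gene Gm38070 was highest in control animal 90C in both states, 118 CPM (others 25.3 to 58.5) in frozen and 237 CPM (others 45.7 to 106) in PureLink liver. Mir6236, whose reads resemble ribosomal RNA, was highest in PureLink phenobarbital animal 20D, at 327 CPM (others 148 to 205).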

How the results depend on the processing

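The split of calls depended on scaling. On library totals 9043 genes rose and 2157 fell, with 8072 and 1954 in control animals, 8215 and 1777 in phenobarbital animals, and falls of 1790 against AllPrep and 2670 against untreated formalin. Without the replicate block 4449 genes rose and 3915 fell against frozen, and 163 and 165 against AllPrep. Thinned to the lowest total, 2687 of 8975 genes rose and 2732 fell against untreated formalin. Fewer genes were tested there, because the lowest total was the 1264563 counts of the untreated library of animal 8A. Leaving out each animal gave 4910 to 5310 rises and 4614 to 4929 falls. The interaction called 0 to 1 genes with an animal left out (Snora78 without 82B) and 16 without the filter on low counts. The 16 were not only genes of low count, since they included mt-Nd6, Hbb-bs and Tfrc.

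The median of all genes was 0.03 in the main fit and 0.10 with no filter. List medians are given less that of all genes, so a change of scaling hardly moves them (plasma proteins -0.814 in the main fit, -0.813 on library totals). Fits with 1 animal left out share most libraries with the main fit. Both kinds are among the 980 list medians less that of all genes, of which 938 stayed within 1 SD over animals. With no filter they were 0.61 (TEC), 0.70 (sense intronic), 0.33 (long intergenic), 0.25 (antisense), 0.37 (processed transcripts), 0.36 (snoRNA hosts), 0.27 (SR and hnRNP), 0.12 (Zfp), 0.12 (clock), -0.016 (immediate early, reversed), -0.015 (hepatocyte regulators, sign changed), -0.40 (transporters), -0.84 (proteasome), -0.76 (short) and -0.52 (cholangiocyte). With a length offset they were 0.89, 0.95, 0.66 and 0.56 for the first 4, -0.10 for snoRNAs (reversed), 0.23 for scaRNAs, 0.74 for mitochondrial genes, 0.59 for snoRNA hosts, 0.32 for immediate early genes, -0.70 for plasma proteins, -0.48 for conjugation, -0.39 for fatty acid oxidation, -0.36 for ribosomal proteins, -0.57 for respiratory chain, -0.56 for proteasome, -0.49 for heat shock, -0.34 for NRF2, -0.45 for short and -0.66 for erythroid genes, and the rank correlation with length was 0.16. With a GC offset they were 0.65 (TEC), 0.68 (sense intronic), 0.53 (mitochondrial), 0.50 (nuclear noncoding) and 0.15 (Zfp). Over nuclear coding genes alone they were -0.32 (snoRNA hosts, reversed), 0.26 (Zfp) and -0.24 (lymphocyte). That fit leaves noncoding genes out, so the members of the snoRNA host list differ there. The cause of the other moves was not tested.

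The 7SK, RNase P and RNase MRP share difference was 0.053 points with mitochondrial genes left out, past the threshold, and 0.0227 to 0.0405 with an animal left out (called without 20D). On library totals Stab2 (0.14), Rn7sk (0.0028), Rmrp (0.054) and Rpph1 (0.12) reversed. Of 1573 values of 162 named genes under other settings, 1492 kept the call or its absence, 66 gained a call, 4 reversed and 11 lost the call. Direction was checked only for genes called in the main fit. Gained calls could differ in sign between settings, as in Nr5a2 (0.20 on library totals, -0.08 with DESeq2). Lost calls were Cyp2b10 with DESeq2 and Cyp3a11 (adjusted p = 0.0544), Saa3, Onecut1, Per3, Spp1, Ugt1a2, Rpph1 and Stab2 without the block, and Stab2 also with nuclear coding genes alone or the GC offset. With an animal left out 18 of 1932 values gained a call, in 8 genes (Fcgr2b, Lrat, Rbp4, Nr5a2, Scd1, Ccnd1, Slc25a15 and, against frozen, Tymp), and 0 lost it. Depth limits genes near the filter: Cyp2b10 in controls rests on a handful of reads.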
